A study of Mus musculus and Ochotona curzoniae and Rattus norvegicus with 18 samples.

Results

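The actin and tropomyosin isoforms described here are 9 genes: the actins ACTA2, ACTG2, ACTB, ACTG1 and ACTC1, and the tropomyosins TPM1, TPM2, TPM3 and TPM4. They were chosen by gene symbol, in the first column of the pika tables and as the upper-case form of the mouse symbol that belongs to each Ensembl identifier. All 9 were found once in each species, among 14418 genes that could be joined by symbol. The study sequenced RNA from cultured fibroblasts, labelled as epidermis, of 4 species with 3 libraries each, and 2 species are compared here. The pika group was the Tibetan pika Ochotona curzoniae, and the mouse group was the strain C57BL/6J. Cells of both were grown in DMEM with 10% FBS and 1% PS under 5% CO2, with no treatment or genetic change named for the RNA libraries, and were lysed at 90% confluency. Nothing in the labels tells whether the libraries were grown from different animals or dishes, and every p-value below therefore reflects library-to-library spread that could be purely technical. Species and annotation differ together between the groups and cannot be told apart.

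Actin subunits join into filaments that give a fibroblast its shape and its pull on the substrate, and tropomyosins are coiled-coil proteins that lie along those filaments and set which motors and binding proteins can reach them. ACTB and ACTG1 encode the cytoplasmic actins found in nearly all cells, ACTA2 and ACTG2 the vascular and enteric smooth muscle actins, and ACTC1 the cardiac actin. ACTA2, known as alpha smooth muscle actin, is the usual marker of myofibroblasts, the contractile state that fibroblasts can take on during wound healing and on stiff culture plastic. Each tropomyosin gene makes several proteins by alternative promoters and splicing, so a value per gene does not say which protein form is made. Many genes of contractile filaments are switched on by the serum response factor SRF, which binds a short element called the CArG box.

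The mouse promoters of the actins are shown because the members divide along lines of actin class, and the CArG box is the element by which this family is known to be regulated. The sequences are the 210 bases before the RefSeq start of each gene, from GRCm38.p6, all on the minus strand and printed 5′ to 3′, and capitals mark every match to the CArG box with at most 1 mismatch. The motif reads the same on both strands. The RefSeq promoter table held an entry for 7 of the 9 members and none for Actg2 or Actb. Acta1, the skeletal muscle actin, is no member and is shown for comparison.
Acta2 chr19:34255374-34255583: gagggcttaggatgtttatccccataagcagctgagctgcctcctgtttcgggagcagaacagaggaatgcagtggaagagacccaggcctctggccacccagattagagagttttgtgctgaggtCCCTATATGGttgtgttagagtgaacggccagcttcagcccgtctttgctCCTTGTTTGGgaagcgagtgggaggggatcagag
Actg1 chr11:120348496-120348705: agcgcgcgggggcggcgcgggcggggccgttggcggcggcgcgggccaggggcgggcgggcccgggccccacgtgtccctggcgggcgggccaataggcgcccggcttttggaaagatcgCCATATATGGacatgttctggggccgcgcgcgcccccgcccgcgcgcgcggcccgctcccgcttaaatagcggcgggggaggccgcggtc
Actc1 chr2:114052876-114053085: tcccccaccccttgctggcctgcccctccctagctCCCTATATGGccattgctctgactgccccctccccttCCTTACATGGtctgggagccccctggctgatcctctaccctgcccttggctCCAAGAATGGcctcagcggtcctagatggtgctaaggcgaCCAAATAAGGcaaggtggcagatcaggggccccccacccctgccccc
Acta1 chr8:123894776-123894985: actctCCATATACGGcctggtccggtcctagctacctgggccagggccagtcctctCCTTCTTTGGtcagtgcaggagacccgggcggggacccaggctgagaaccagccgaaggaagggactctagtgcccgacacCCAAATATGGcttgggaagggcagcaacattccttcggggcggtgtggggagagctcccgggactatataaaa

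In the Acta2 window 2 matches were found, beginning 84 and 34 bases before the start, each with 1 mismatch. This window lies inside the annotated span of the gene, which reaches past the RefSeq start used. Actg1 had 1 match, exact, 90 bases before its start. Actc1 had 4 matches, of which the one 47 bases before the start was exact, and Acta1 had 3, of which the one 73 bases before the start was exact. Over the full 250 upstream bases of the table, Tpm1 had 2 matches with 1 mismatch, the first Tpm3 entry 1 and the second Tpm3 entry 2, while Tpm2 and Tpm4 had none. Of 32851 mouse promoters of this length, 18.6% held at least 1 match with up to 1 mismatch, 2.2% at least 2, 0.21% at least 3 and 0.0304% at least 4, and 1.47% held an exact match. These are matches of letters in the mouse genome only. Acta2, with 2 matches, and Tpm2 and Tpm4, with none, were called lower in pika. Actg1, Tpm1 and Tpm3, each with at least 1 match, were not called, and Actc1, with 4, was at the edge of detection in both species. No pika promoter was scanned and none of Actg2 or Actb, so a part of this element in the species differences was not tested.

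The values are FPKM, the fragments of a gene relative to the length of its model and to the library total, as the authors deposited them, rescaled here so that the 14418 joined genes summed to 1000000 in each library. The totals behind the deposited values were 7703576 to 8481030 reads in pika and 3663102 to 5758950 in mouse. The joined genes held 87.08% to 87.15% of the deposited FPKM in pika but 37.0% to 38.28% in mouse, so the rescaling multiplied pika values by 2.16 to 2.17 and mouse values by 5.25 to 5.37. Levels of different genes can be compared on this scale because it is per length, and the share of an isoform within its family does not depend on how a library is scaled. A gene was called different when limma-trend, on log2(value + 1) over all 10348 genes tested, gave an adjusted p under 0.05 with a log2 fold change of at least 1 in size. A negative fold change means a lower level in pika, and the added 1 makes the change of low genes look smaller than it is. The fibroblast identity on the label was checked with 11 joined marker genes, whose summed rescaled FPKM was 11410 to 11820 in pika and 14550 to 14980 in mouse. COL1A1, the main chain of type I collagen, had mean rescaled FPKM of 4787 in pika and 4811 in mouse, with overlapping libraries, and VIM, vimentin, had 4335 ± 64.77 and 5298 ± 137.7 (SD, n = 3). Other markers of this list differed widely: PDGFRA, a growth factor receptor, had 3.475 in pika and 65.12 in mouse, and FAP, a surface protease, had 41.7 and 1.23. Of 11 joined markers of keratinocytes, the main cells of the epidermis, KRT5 and KRT14 were listed at 0 in all 3 pika libraries and held 1 read each over the 3 mouse libraries, and 4 were high enough to be tested. Of these, PERP, at 70.42 in pika and 2.659 in mouse, and PKP1, at 26.7 and 0.0734, were higher in pika, and DSP, at 0.153 and 45.21, and SFN, at 1.052 and 10.79, were lower. Each of the 4 reached the mean deposited FPKM of 1 needed for testing only in the species where it was higher.

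Of the 9 isoforms, 8 were tested, 0 were called higher in pika, 4 were called lower, namely ACTA2, ACTG2, TPM2 and TPM4, and 4 were not called, namely ACTB, ACTG1, TPM1 and TPM3. ACTC1 was under the filter on low values. Over all genes tested, 52.2% were called, 28.7% higher and 23.5% lower. The values of the 3 pika and the 3 mouse libraries did not overlap for 7 of the 9 isoforms, all but ACTG1 and ACTC1, and among all tested genes 89.0% did not overlap. ACTG2 passed the filter on low values through mouse alone. The 9 isoforms together held 1.10% ± 0.02 of the joined FPKM in pika and 2.72% ± 0.05 in mouse (SD, n = 3).

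**Figure D1:**
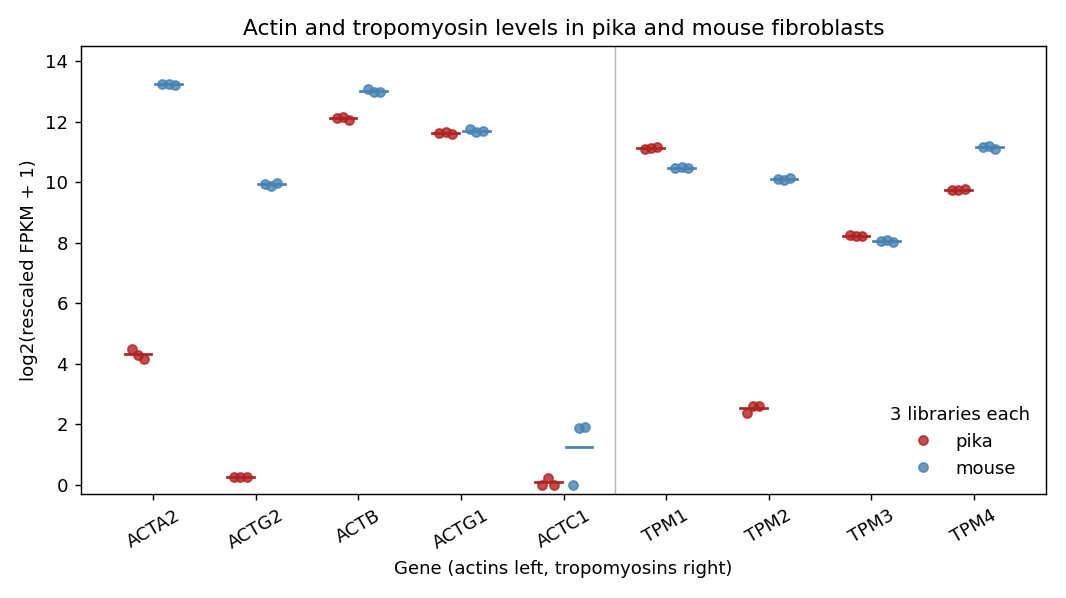
Rescaled FPKM of each isoform in each of the 6 libraries, drawn as log2(value + 1), with 1 point per library and a bar at each species' mean of these logs. ACTA2, ACTG2 and TPM2 are far lower in pika, with differences of the drawn means of -8.92, -9.66 and -7.56, while the points of ACTG1 overlap.

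ACTA2, the smooth muscle alpha actin, had rescaled FPKM of 21.27, 18.62 and 16.96 in the 3 pika libraries and of 9729, 9692 and 9468 in the 3 mouse libraries. Every mouse library was far above every pika library. The mouse mean of 9630 ± 141.2 was 508.2-fold the pika mean of 18.95 ± 2.172 (SD, n = 3). The log2 fold change was -8.92 ± 0.07 (SE) with an adjusted p of 1.92e-12. Behind these values stood 298 reads in pika and 45745 in mouse, on gene models of 1398 and 1781 bases. In mouse, Acta2 (ENSMUSG00000035783) lies on chromosome 19 at 34240336 to 34255585 in GRCm38. A lower value in a culture cannot tell fewer cells that express a gene from less of its RNA in each cell.

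ACTG2, the enteric smooth muscle actin, was seen with 1 read in each pika library and with 540, 338 and 468 reads in the mouse libraries. Its rescaled FPKM was 0.2002, 0.211 and 0.1923 in pika and 969.8, 942.9 and 998.2 in mouse. With the joined-gene total as scale, the groups stood furthest apart of the 8 tested isoforms. The log2 fold change was -9.66 ± 0.07 (SE), with an adjusted p of 1.92e-12. With 3 reads in all in pika, the ratio of mouse to pika was 4820, with a 95% exact interval of 1650 to 23400 that covers counting error only. The fitted fold change depends on the added 1, and was -11.65 with a pseudocount of 0.1. Its place as the largest depends on the setting. Without rescaling ACTG2 was at -7.39 and ACTA2 at -7.54. Without gene length ACTG2 was at -6.83, ACTA2 at -8.20 and TPM2 at -7.35. The mouse gene Actg2 lies on chromosome 6 at 83512909 to 83536251. Its recovered model length of 519 bases and its reads are the smallest whole numbers that fit the deposited values, and both may be too small by a shared factor, which leaves the FPKM as it is and makes its values without gene length unreliable.

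The cytoplasmic actins were the most abundant isoforms in pika on FPKM. On reads not divided by length, TPM1 was above ACTG1 in all 3 pika libraries. ACTB, beta actin, had rescaled FPKM of 4446, 4519 and 4282 in pika and of 8560, 8116 and 8011 in mouse. All mouse libraries were above all pika libraries, by 1.86-fold between the means of 4416 ± 121.7 and 8229 ± 291.3 (SD, n = 3). The log2 fold change of -0.90 ± 0.03 (SE, adjusted p = 3.69e-09) was under the size needed for a call. It passed that size with median-of-ratios scaling, at -1.08, and changed direction without rescaling, at 0.40, since the deposited FPKM was 2043 ± 58.8 in pika and 1550 ± 38.4 in mouse. In mouse, Actb lies on chromosome 5 at 142903115 to 142907976.

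ACTG1, gamma actin, had rescaled FPKM of 3163, 3256 and 3096 in pika and of 3478, 3210 and 3298 in mouse. The ranges overlapped, and the means of 3172 ± 80.56 and 3329 ± 136.6 (SD, n = 3) gave a log2 fold change of -0.07 ± 0.03 (SE, adjusted p = 0.0722). That sign rests on the scaling, with 1.23 on the deposited values and 0.20 without gene length. Mouse Actg1 lies on chromosome 11 at 120345687 to 120348495. The ratio of ACTB to ACTG1 is free of the scaling, and was 1.406, 1.388 and 1.383 in pika and 2.461, 2.528 and 2.429 in mouse. It was also higher in mouse on reads not divided by length, with 1.452 ± 0.012 in pika against 2.492 ± 0.051 in mouse (SD, n = 3).

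The striated muscle actins were close to or at 0 in pika. ACTC1, the cardiac actin, was listed at 0 in pika libraries 1 and 3 and at 0.1811 rescaled FPKM in library 2, and in mouse at 0, 2.684 and 2.737. This rests on 1 read in pika and 7 in mouse, a ratio of 29.9 with a 95% exact interval of 3.85 to 1350, and the libraries overlapped. Tested with no filter, its log2 fold change was -1.18 ± 0.47 (SE, adjusted p = 0.0482), and 5 isoforms were then called lower. In mouse, Actc1 lies on chromosome 2 at 114047282 to 114052875. ACTA1, the skeletal actin, which is no member, held 0.1908, 0 and 0.3666 in pika and 219.1, 186.6 and 189.5 in mouse, with 3 reads against 822 and a ratio of 1070 (95% exact interval 364 to 5190). Its log2 fold change of -7.40 ± 0.14 (SE) had an adjusted p of 1.14e-10.

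Among the tropomyosins, TPM1 was the main gene in pika. Its rescaled FPKM was 2205, 2237 and 2278 in pika and 1413, 1441 and 1422 in mouse. All pika libraries were above all mouse libraries, by 1.57-fold between means of 2240 ± 36.6 and 1426 ± 14.26 (SD, n = 3), and the log2 fold change of 0.65 ± 0.02 (SE, adjusted p = 4.85e-09) was under the size for a call. Without rescaling it was 1.94 and was called. Tpm1 lies on mouse chromosome 9 at 67022590 to 67049672.

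TPM2, the beta tropomyosin common in skeletal and smooth muscle, had 4.19, 5.123 and 5.151 rescaled FPKM in pika and 1099, 1074 and 1116 in mouse. The mouse mean of 1096 ± 20.99 was 227.4-fold the pika mean of 4.821 ± 0.547 (SD, n = 3), with a log2 fold change of -7.56 ± 0.07 (SE) and an adjusted p of 3.41e-12. The reads behind it were 86 in pika and 8521 in mouse. Tpm2 lies on mouse chromosome 4 at 43513726 to 43523583.

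TPM3, which makes cytoplasmic and slow-muscle forms, differed least in level among the tropomyosins. Its rescaled FPKM was 301.7, 295.8 and 297.2 in pika and 266.2, 268.4 and 261.4 in mouse. The groups did not overlap, and the difference was small, 1.12-fold, with a log2 fold change of 0.17 ± 0.03 (SE, adjusted p = 0.000705). That direction turned with median-of-ratios scaling, at -0.01, and without rescaling the value was 1.45 and called. Tpm3 lies on mouse chromosome 3 at 90072651 to 90100902.

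TPM4, the form named for non-muscle cells, had 863.3, 858.9 and 868.0 rescaled FPKM in pika and 2278, 2334 and 2182 in mouse. All mouse libraries were higher, by 2.62-fold between means of 863.4 ± 4.532 and 2265 ± 76.57 (SD, n = 3), with a log2 fold change of -1.39 ± 0.03 (SE, adjusted p = 1.86e-10). This call was lost without rescaling, at -0.09, where the deposited FPKM was 399.5 ± 1.66 in pika and 426.7 ± 12.3 in mouse. Tpm4 lies on mouse chromosome 8 at 72135288 to 72153142.

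**Figure D2:**
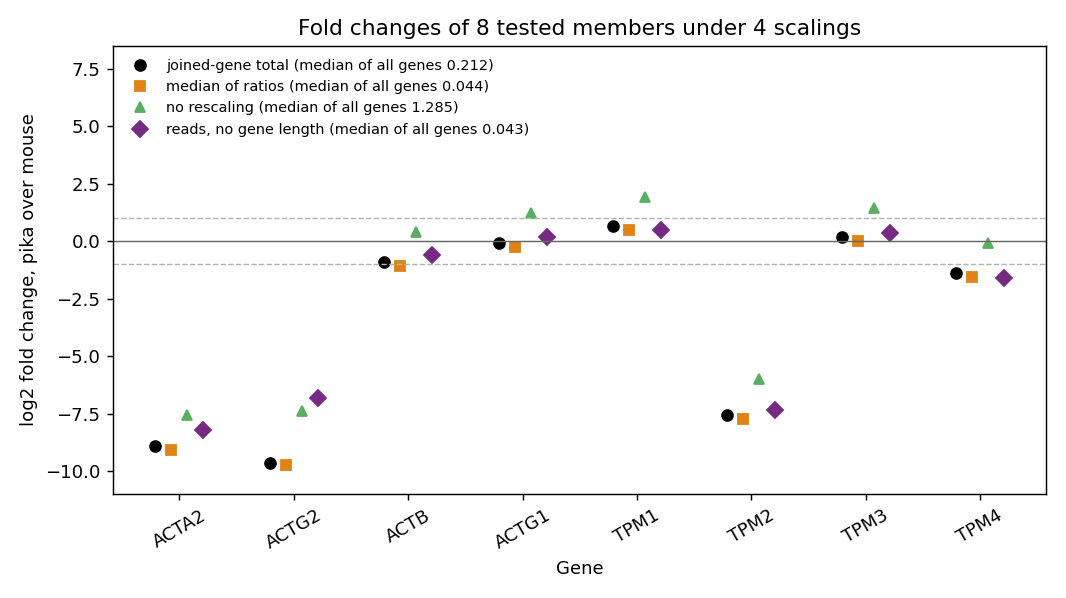
Log2 fold change, pika over mouse, of the 8 tested isoforms under 4 scalings, with dashed lines at 1 and -1 and the median of all tested genes given for each scaling. ACTA2, ACTG2 and TPM2 stay below -5 under every scaling drawn, whereas ACTB, ACTG1 and TPM3 lie on both sides of 0.

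The scaling sets the level on which these fold changes are read. Over all genes the median log2 fold change was 0.21 with the joined-gene total, 0.04 with median-of-ratios scaling, 1.285 without rescaling and 0.04 on reads without gene length. Of all calls, 55.0% were higher in pika in the first case and 48.9%, 84.5% and 48.6% in the others. Relative to these medians, ACTA2 lay between -9.14 and -8.24, ACTG2 between -9.87 and -8.68 with reads without gene length left aside, and TPM2 between -7.78 and -7.29. TPM4 lay between -1.66 and -1.38, ACTB between -1.12 and -0.63, and TPM1 between 0.43 and 0.66. ACTG1, between -0.29 and 0.15, and TPM3, between -0.05 and 0.30, crossed 0 even then.

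The shares within each family do not depend on how a library is scaled, but they do depend on the lengths of the gene models. In pika, ACTB made up 58.27%, 57.98% and 57.9% of the summed FPKM of the 5 actins, and ACTG1 made up 41.45%, 41.78% and 41.86%. Together the cytoplasmic actins were 99.75% ± 0.03 (SD, n = 3) of the actin pool, and all smooth muscle actin, ACTA2 with ACTG2, was 0.25% ± 0.03. In mouse the pool was 52.15% ± 0.71 cytoplasmic and 47.84% ± 0.71 smooth muscle actin (SD, n = 3), and on reads not divided by length, where those of ACTG2 may be too few, 63.62% and 36.37%.

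ACTA2 alone was 0.2787%, 0.2388% and 0.2294% of the actins in pika and 42.79%, 44.13% and 43.47% in mouse, a difference of -43.21 percentage points. ACTG2 was 0.0026% of the pika pool and 4.38% ± 0.18 of the mouse pool. ACTB took 20.92 points more and ACTG1 26.68 points more of the pool in pika than in mouse, where their shares were 37.13% ± 0.46 and 15.02% ± 0.36 (SD, n = 3). The rank of the cytoplasmic actins was the same in both species, ACTB above ACTG1. ACTA2 stood first in mouse on FPKM and after both in pika, but on reads not divided by length ACTB was above ACTA2 in all 3 mouse libraries, with 45.4% against 35.33% of the actin reads. The share of ACTC1, at most 0.01257% in any library, overlapped between species.

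The tropomyosin pool was led by TPM1 in pika and by TPM4 in mouse. TPM1 was 65.35%, 65.85% and 66.06% of the summed FPKM of the 4 genes in pika and 27.95%, 28.16% and 28.55% in mouse, 37.53 points more in pika. TPM4 was 25.59%, 25.29% and 25.17% in pika and 45.04%, 45.6% and 43.8% in mouse, a difference of -19.47 points. TPM2 was 0.1242%, 0.1508% and 0.1494% in pika and 21.74%, 20.99% and 22.4% in mouse, a difference of -21.57 points. TPM3 was the smallest mouse share, 5.25% ± 0.01, and in pika took 8.76% ± 0.17 (SD, n = 3). The ratio of TPM1 to TPM4 was 2.594 ± 0.036 in pika and 0.630 ± 0.019 in mouse, so the order of this pair was reversed.

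Each of the 9 shares was tested with a two-sided exact permutation test over the 6 libraries, for which 3 against 3 allows no p below 0.1. The exact p was 0.1, and 0.113 after adjustment over the 9 shares, for all but ACTC1, whose exact p was 0.4. No share could therefore pass 0.05 in this design. The libraries of the species did not overlap in 8 of the 9 shares, and neither did the levels of 89.0% of all tested genes. Shares of a family are bound to each other by their common sum, so they are not separate observations. Shares of reads, not divided by gene length, gave ACTA2 0.22% in pika and 35.33% in mouse, TPM1 77.62% and 48.56%, and TPM4 9.82% and 26.2%. On reads TPM1 was therefore the largest tropomyosin in mouse as well, ahead of TPM4, and the gene model of TPM1 in mouse, 6485 bases, was longer than that of TPM4, 2203 bases.

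**Figure D3:**
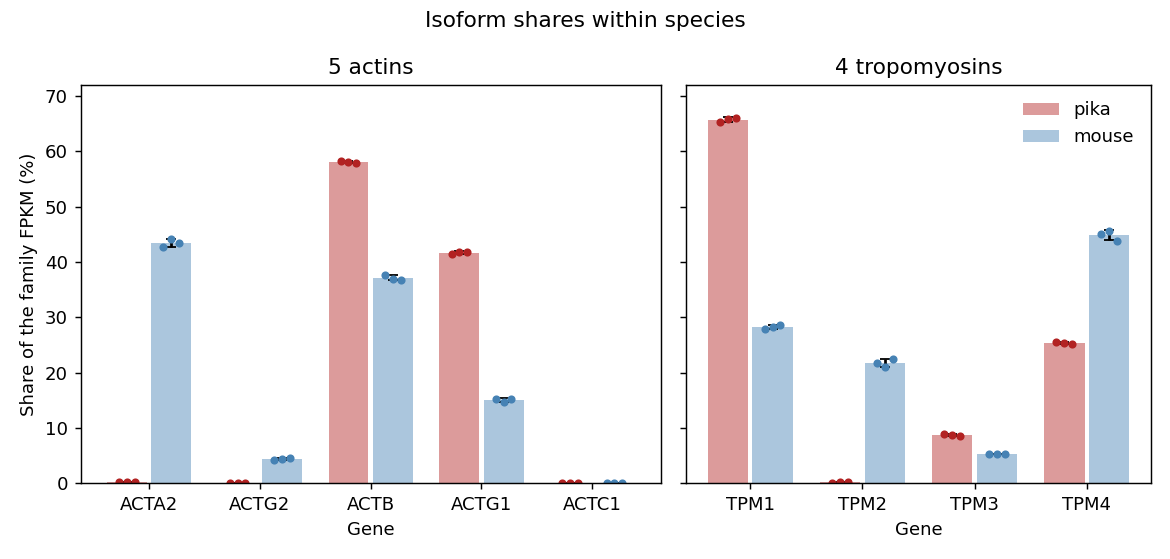
Share of each actin in the 5 actins and of each tropomyosin in the 4 tropomyosins, in percent of summed FPKM, for each of the 6 libraries. ACTA2 takes 42.79% to 44.13% of the mouse actin pool and under 0.3% of the pika pool, and TPM1 takes 65.35% to 66.06% of the pika tropomyosin pool.

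Summed over the family, the 5 actins reached 7630, 7795 and 7395 rescaled FPKM in pika and 22740, 21960 and 21780 in mouse. The 4 tropomyosins reached 3374, 3396 and 3448 in pika and 5056, 5117 and 4982 in mouse. The pika sum was thus 0.3433 of the mouse sum for actins and 0.6743 for tropomyosins. On the deposited values the actin ratio was 0.8429 and the tropomyosin ratio was 1.656, on the other side of 1. The ratio of tropomyosin to actin, free of scaling, was 0.448 ± 0.016 in pika and 0.228 ± 0.005 in mouse (SD, n = 3). Against the cytoplasmic actins alone, a ratio chosen after its values were seen, it was 0.4435, 0.4368 and 0.4674 in pika and 0.42, 0.4518 and 0.4405 in mouse, and these overlapped. On reads not divided by length it was 0.6545, 0.6458 and 0.6916 in pika and 0.5905, 0.6356 and 0.6242 in mouse, and these did not.

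Ordered by level within pika, the isoforms ran ACTB, ACTG1, TPM1, TPM4, TPM3, ACTA2, TPM2, ACTG2 and ACTC1, at ranks 4, 9, 23, 160, 583, 7002, 8936, 11395 and 12210 of the 14418 joined genes. In mouse the order was ACTA2, ACTB, ACTG1, TPM4, TPM1, TPM2, ACTG2, TPM3 and ACTC1, at ranks 3, 4, 16, 30, 74, 103, 118, 677 and 10375. No neighbours in either order overlapped between libraries on FPKM. ACTB held the same rank in both species. ACTA2 ranked just above ACTB in mouse, an order that turned on reads not divided by length, with 45745 reads against 59009, and lay far below it in pika. Other places turned on such reads as well. In pika, TPM1 with 69797 reads was above ACTG1 with 55214, and TPM3 with 11199 was above TPM4 with 8831. In mouse, TPM1 with 24620 reads was above TPM4 with 13277 and, except in library 1, above ACTG1 with 23730.

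Actin and tropomyosin genes are close copies of one another, and the mouse genome also holds processed copies, so reads may be split or lost among them. In mouse, only a few such copies were looked up by name, and their rows were low: Actg-ps1 had 18.23, 20.4 and 13.51 deposited FPKM, Gm7809, which carries the older name Tpm4-ps, had 14.04, 15.82 and 15.63, and Tpm3-rs7 had 4.947, 5.055 and 3.104. Other copies were not examined. In pika, 3694 of 19398 rows carried only a LOC number. These rows held 9.11% to 9.17% of the pika FPKM, and 13 of them reached 500 FPKM or more in each library, the highest 3342 to 3447. They were not assigned to genes here, so whether any of them holds reads of a smooth muscle actin or of TPM2 was not tested.

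Genes whose profile was nearest to that of ACTA2 were found by the Euclidean distance between log2(value + 1) levels over the 6 libraries. They were LARS2, a mitochondrial leucyl-tRNA synthetase, at a distance of 2.969, IGFBP4, a secreted binding protein of insulin-like growth factors, at 3.719, and GAS6, a ligand of TAM receptors, at 4.429. Mean rescaled FPKM in pika and mouse was 20.72 and 2962 for LARS2, 11.81 and 2341 for IGFBP4, and 16.77 and 1651 for GAS6. None of them reached the mouse level of ACTA2 on FPKM. On reads not divided by length LARS2, with a mouse model of 11089 bases, was above ACTA2 in mouse, with 88128 reads against 45745. For TPM1 the nearest were CCDC80, a matrix protein, at 0.36, PTMA, prothymosin alpha, at 0.478, and RPS7, a ribosomal protein, at 0.505. CCDC80 had 2179 in pika and 1243 in mouse, PTMA 2661 and 1504, and RPS7 1955 and 1640. The 6 points of each profile fall into 2 species, so nearness says little more than a like pair of levels.

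The other genes of the actin system were counted in lists that hold no member. For comparison with each list, 28.7% of all genes tested were called higher in pika and 23.5% lower, with a median log2 fold change of 0.21. Of 12 other actins and actin-related proteins, 11 were tested, and 3 were higher in pika, 2 lower and 6 not called, with a median log2 fold change of 0.59. The lower ones were ACTA1, above, which passed the filter on low values through mouse alone, and ACTR1B, a subunit of the dynactin complex, at 32.29 ± 2.779 in pika against 133.7 ± 4.556 in mouse (SD, n = 3, log2 fold change -2.02). The ACTR1B call was lost without rescaling, at -0.72, and without gene length, at -0.99. ACTL6A, an actin-related subunit of chromatin remodelling complexes, was higher, at 149.1 ± 5.364 against 39.4 ± 1.697 (SD, n = 3, log2 fold change 1.89), and so was ACTR5, of the INO80 complex, at 16.41 ± 0.4798 against 5.328 ± 1.981 (log2 fold change 1.51). Without rescaling 7 of this list were higher and 1 lower.

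Of 28 genes of actin assembly and turnover, 27 were joined and tested, of which 7 were higher in pika, 5 lower and 15 not called, with a median of 0.29. GSN, gelsolin, which severs and caps filaments, had 2.954, 3.329 and 2.446 rescaled FPKM in pika and 1224, 1242 and 1272 in mouse. This log2 fold change of -8.32 ± 0.08 (SE, adjusted p = 3.48e-12) rested on 85 reads in pika and 10483 in mouse. ARPC5L, a subunit of the Arp2/3 complex, was higher at 185.8 ± 12.39 against 28.29 ± 3.368 (SD, n = 3, log2 fold change 2.68), but was at 0.73 and not called without gene length. TMSB10, a thymosin that binds actin monomers, was higher at 3570 ± 131.7 against 959.6 ± 84.65 (SD, n = 3, log2 fold change 1.897). DAAM1, a formin, was lower at 12.86 ± 1.302 against 43.46 ± 2.156 (log2 fold change -1.69). It lost that call without rescaling, at -0.41, and changed direction without gene length, at 0.25. Without rescaling 18 of this list were higher and 1 lower.

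Of 19 cross-linkers and adhesion links, 18 were tested, of which 1 was higher, 9 lower and 8 not called, with a median of -1.10. PDLIM5, a scaffold of the actinin-bound filament, stood at 36.13 ± 1.552 in pika against 202.9 ± 6.521 in mouse (SD, n = 3, log2 fold change -2.46). FLNC, the muscle filamin, stood at 104 ± 5.631 and 566.6 ± 5.891 (log2 fold change -2.44). ACTN1, alpha-actinin, which bundles stress fibres, stood at 345.3 ± 4.103 and 1604 ± 34.49 (SD, n = 3, log2 fold change -2.21), and at -0.92, not called, without rescaling. Without rescaling 5 of this list were higher and 3 lower.

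Of 16 partners of tropomyosin (tropomodulins, leiomodins, caldesmon and troponins), 13 were joined and 6 tested, of which 1 was higher, 4 lower and 1 not called. Of the 4 lower ones, TNNT3 and TNNC1 passed the filter on low values through mouse alone, and with a filter at 5 FPKM 1 gene of this list was lower. LMOD1, leiomodin, which nucleates filaments in smooth muscle, had 4.136, 2.024 and 2.27 rescaled FPKM in pika and 136.5, 122.1 and 129.8 in mouse (log2 fold change -5.14 ± 0.18, SE). TMOD1, a tropomodulin that caps pointed filament ends, stood at 2.416 ± 0.3921 and 13.88 ± 0.8883 (SD, n = 3, log2 fold change -2.13), and at -0.77, not called, without rescaling. The troponins that were called were near the limit of detection: TNNC1 had 3 reads in pika and 30 in mouse, and TNNT3 had 0 and 41.

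Of 14 genes for SRF and its coactivators, 9 were joined and 7 tested, of which 0 were higher, 1 was lower and 6 were not called, with a median of 0.17. SRF had 69.23, 65.6 and 67.06 rescaled FPKM in pika and 130.5, 137.2 and 130.4 in mouse. All mouse libraries were higher, and the log2 fold change of -0.97 ± 0.05 (SE, adjusted p = 5.44e-08) was just under the size for a call. It was called with median-of-ratios scaling, at -1.14, and without gene length, at -1.50, and was at 0.31 without rescaling. FHL2, a LIM-domain partner of SRF, was lower at 166.2 ± 9.229 against 353.5 ± 5.723 (SD, n = 3, log2 fold change -1.09), but at 0.20 without rescaling and -0.24 without gene length. ELK3, an ETS factor that binds with SRF, stood at 90.49 ± 3.012 and 77.37 ± 3.562 (log2 fold change 0.22) and was not called. The genes of the myocardin-related coactivators were not joined, and MYOCD, myocardin, stood at 2.552 ± 0.608 and 1.403 ± 0.578 (SD, n = 3) with overlapping libraries.

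**Figure D4:**
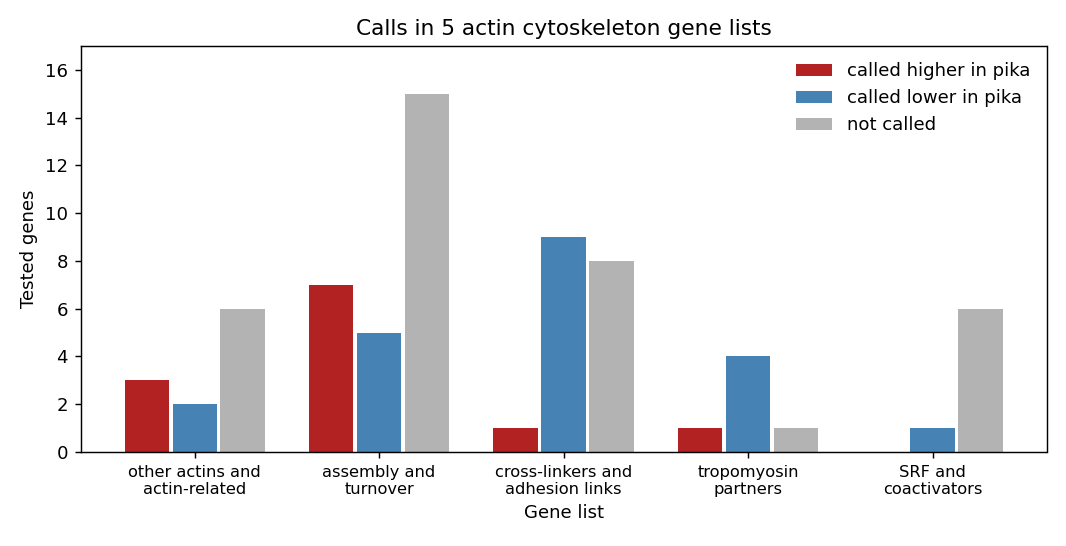
Number of tested genes called higher in pika, called lower and not called, for 5 lists of other genes of the actin system, which hold none of the 9 isoforms. The cross-linkers and adhesion links have 1 higher and 9 lower, and the assembly and turnover genes have 7 higher and 5 lower. Over all tested genes 28.7% were called higher and 23.5% lower.

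Most tested markers of smooth muscle were lower in pika. Leaving out ACTG2, which is itself a member, 7 markers were joined and 6 tested, of which 5 were lower in pika and 0 higher. Over all genes tested, 23.5% were called lower and 28.7% higher. The other one, MYOCD, was higher in mean in pika but not called (log2 fold change 0.57, adjusted p = 0.0355). MYOCD passed the filter on low values through pika alone, and CNN1 and SYNPO2 passed it through mouse alone. The 7 markers had a sum of 33.76 to 38.64 rescaled FPKM in pika and 1099 to 1122 in mouse. CNN1, calponin, made up most of this at 745 ± 1.455 in mouse against 1.304 ± 0.321 in pika (SD, n = 3, log2 fold change -8.35). MYH11, the smooth muscle myosin heavy chain and the defining marker of that cell type, stood at 66.6 ± 2.891 in mouse and 10.26 ± 0.4125 in pika (log2 fold change -2.59), and SMTN, smoothelin, at 146.4 ± 8.43 and 17.12 ± 0.5215 (log2 fold change -3.02). DES, desmin, was low in both, at 4.205 ± 1.097 and 1.598 ± 0.505. The part of smooth muscle cells in the ACTA2, ACTG2 and TPM2 values was not tested.

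Markers of the other cell types gave a mixed picture. Their counts stand beside the same shares over all tested genes, 28.7% higher and 23.5% lower. Of 6 pericyte markers, 3 were higher in pika and 2 lower, with a sum of 125.5 to 145.9 in pika and 67.47 to 71.84 in mouse. Of these, ABCC9 and KCNJ8, higher in pika, passed the filter on low values through pika alone. RGS5 and NOTCH3, the lower ones, passed it through mouse alone. Of 12 joined markers of skeletal and cardiac muscle, 0 were high enough to be tested, their sum was 3.068 to 3.705 in pika and 4.279 to 8.553 in mouse, and CKM, the muscle creatine kinase, was listed at 0 in all 6 libraries. The 7 endothelial markers summed to 0.8977 to 2.557 in pika and 32.7 to 39.53 in mouse, with CDH5 and KDR listed at 0 in pika. TEK, the only one tested and that through mouse alone, made up most of the mouse sum, at 31.42 against 0.7019 in pika. The 6 joined leukocyte markers summed to 14.07 to 15.24 and 36.8 to 44.55, with PTPRC, ADGRE1 and ITGAM listed at 0 in pika. The 11 joined keratinocyte markers summed to 90.98 to 103 and 64.46 to 71.51. Among the fibroblast markers, 2 were higher in pika, 5 lower and 4 not called. FAP, higher in pika, passed the filter on low values through pika alone. COL3A1, the type III collagen chain, had 22.89 ± 1.439 in pika against 954.8 ± 16.36 for mouse (SD, n = 3, log2 fold change -5.32). The part of these cells in the isoform values was not tested.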

How the data were processed

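RNA-seq libraries of pika and mouse fibroblasts were compared, 3 of each, and the rat, rabbit and 6 ChIP-seq samples were not analysed here. The deposited tables hold 1 FPKM value per gene, made by the authors. The submitters' processing notes list CASAVA 1.9, STAR 2.6.1a, featureCounts and edgeR 3.28.1 with no order, and GRCm38 as the only build, and which annotation went with which species is not stated in the labels or headers. FPKM divides by the length of a gene model, which differed between species.

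From the steps of the FPKM values, whole reads, model lengths and library totals were worked out with a tolerance of 0.002 reads. The recovered reads added up to 95.69% to 96.3% of the totals, and where every read number of a gene shares a divisor, its reads and length come out too low by it. Replicates differed by a mean chi-square per gene of 1.344 to 1.531 in pika and 1.164 to 1.243 in mouse, where sampling alone gives about 1, which does not tell separate cultures from separate preparations of 1 sample. Symbols were found for 49326 of 49585 mouse rows. Of the pika rows, 24 had been turned into dates.

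Genes whose deposited FPKM averaged at least 1 in either species were tested with limma 3.58.1 in R 4.3.3, with a pseudocount of 1 and Benjamini-Hochberg adjustment over all tested genes, two-sided. The script was tested on simulated data. Shares and exact tests used scipy 1.17.1, pandas 2.3.3 and numpy 2.4.6 under Python 3.11.15. Intervals and read counts cover counting error only. The alternatives were another pseudocount, other filters, 2 other scalings, reads without gene length, limma-voom, limma without trend, a replicate block and each library left out.

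The members, lists and tests were chosen with earlier results of these data known. Named genes were the 9 members, ACTA1, SRF, up to 4 called genes of each list with the largest absolute fold change, up to 2 further genes with the highest level where fewer than 2 were called, and the 3 nearest profiles of ACTA2 and TPM1. A gene of the cross-linker list that this rule names is not reported here. Genes of the cell type marker lists were named as checks of the label.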

Additional observations from a re-analysis of the deposited data

How the results depend on the processing

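Of 120 alternative values for the log2 fold changes of the 8 tested isoforms, 112 kept their direction and their side of the threshold. All 81 alternative values for the shares kept their direction, and no share can reach 0.05 under any setting. With median-of-ratios scaling ACTB was -1.075 and TPM3 -0.008. Without rescaling ACTB was 0.398, ACTG1 1.225, TPM1 1.944, TPM3 1.446 and TPM4 -0.094, and 3 isoforms were called higher. Without gene length ACTG1 was 0.196. The cause was not tested. Over all genes, 6029 were called higher and 1106 lower without rescaling, against 2970 and 2433.

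Leaving out each library gave ACTA2 from -9.003 to -8.848, TPM2 from -7.605 to -7.482 and TPM4 from -1.416 to -1.368, with 4 isoforms lower and 0 higher each time. Same-numbered libraries of the species did not deviate together (correlations -0.009, 0.048 and 0.009), so the numbers were not taken as pairs. With the number as a replicate block ACTA2 was -8.921, TPM4 -1.389, and 4 isoforms were lower, and a paired share has a smallest exact p of 0.25.

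The settings for lists and summed levels were added after the data were seen. The tropomyosin sum of pika over mouse was 0.5965 with median-of-ratios scaling, 1.656 without rescaling and 0.866 without gene length, and the actin sum 0.3036, 0.8429 and 0.5129. Without rescaling, higher and lower calls were 7 and 1 for other actins, 18 and 1 for assembly and turnover, 5 and 3 for cross-linkers, 4 and 0 for SRF and coactivators, and 2 were higher for tropomyosin partners. Reversed single genes were FHL2 at 0.203 and SRF at 0.305. Without gene length, 5 other actins were higher, 3 assembly genes lower, 0 cross-linkers and 0 tropomyosin partners higher, and 2 SRF genes lower, with DAAM1 reversed at 0.251. With median-of-ratios scaling 2 SRF genes were lower. With no filter 2 tropomyosin partners were higher and 3 SRF genes lower, and with a filter at 5 FPKM 0 partners were higher and 1 lower. Leaving out pika library 1 or mouse library 3 made 1 SRF gene higher, with a range of 0 to 1 over the libraries left out, and the count of other actins called higher ranged from 2 to 3. With no filter ACTC1 was also called, at -1.181, and 5 isoforms were lower.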
